A study of Rattus norvegicus with 23 samples.

Results

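The complement genes of neonatal rat microglia were followed across hypoxia-ischemia (HI) with and without a preceding inflammatory stimulus. The set was a list of 9 genes named for their place in the cascade, C3, C1qa, C1qb, C1qc, C2, Cfb, Cfp, C3ar1 and C5ar1, and it was chosen with the levels of these genes in the groups already known. Of these 9 genes, 7 had a row among the 20301 genes of the expression table, and C2 and C5ar1 were not analysed here. The question put to the genes was how C3 compared with the classical pathway, the regulators and the receptors of the cascade.

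Microglia were isolated from the brains of Wistar rat pups of both sexes operated on postnatal day 7, and bulk RNA sequencing was done on 23 samples. The Sham group (n = 6) had a neck incision under anaesthesia and received no LPS. No injection is described for Sham, while all other groups were injected. In comparisons with Sham the injection and the treatment therefore cannot be told apart. The LPS group (n = 5) received 0.1 mg/kg lipopolysaccharide, a cell wall component of Gram-negative bacteria, into the peritoneum 4 h before a sham operation. The NaCl/HI group (n = 6) received saline before ligation of the left common carotid artery and 50 min of hypoxia at 8% oxygen. The LPS/HI group (n = 6), the inflammation-sensitized injury, received the same LPS dose 4 h before ligation and hypoxia. Cells were taken 24 h after the operation with magnetic beads against CD11b/c, the products of Itgam and Itgax, from the entire brain of 1 pup in the Sham and LPS groups. In both HI groups a sample pooled the ligated-side hemispheres of 2 pups, so that HI, the hemisphere and the pooling cannot be told apart. Carotid ligation alone and hypoxia alone were not separate groups.

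Complement is a protease cascade of innate immunity. In the classical pathway C1q, built from the chains A, B and C, binds a target and activates the proteases C1r and C1s, which cleave C4 and C2, and the resulting enzyme cleaves C3. Factor B and properdin build and stabilise the C3-cleaving enzyme of the alternative pathway, and the fragments C3a and C5a act on the receptors C3ar1 and C5ar1. Microglia are the main source of C1q in the brain, and in the developing brain C1q and C3 mark synapses that microglia remove through the receptor CD11b/CD18.

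The upstream sequences of C3 and of a pair of C1q chains are given because C3 differed far more between the groups than the C1q chains did. RefSeq (build GRCr8, another build than that of the expression table) gave an upstream sequence for 5 of the 7 genes, and C1qc and Cfb had none. Each run holds the 250 bases before the annotated start, 5′ to 3′ on the coding strand, for C3 at chr9:2201340-2201589, for C1qa at chr5:154419934-154420183 and for C1qb at chr5:154407828-154408077, all 3 on the minus strand. Capitals mark matches, on either strand, to 6 short motifs that were searched: C/EBP (TTNNGNAA), NF-kB (GGG and TTTCC with 2 bases between), PU.1 (GAGGAA), STAT (TTCNNNGAA), IRF (GAAA and GAAA with 2 bases between) and the hypoxia response element core (ACGTG).
C3: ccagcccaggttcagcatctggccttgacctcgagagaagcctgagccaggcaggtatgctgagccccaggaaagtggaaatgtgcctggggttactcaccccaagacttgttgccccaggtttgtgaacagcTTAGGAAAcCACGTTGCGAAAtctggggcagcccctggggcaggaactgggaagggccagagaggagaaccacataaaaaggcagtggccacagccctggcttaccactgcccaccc
C1qa: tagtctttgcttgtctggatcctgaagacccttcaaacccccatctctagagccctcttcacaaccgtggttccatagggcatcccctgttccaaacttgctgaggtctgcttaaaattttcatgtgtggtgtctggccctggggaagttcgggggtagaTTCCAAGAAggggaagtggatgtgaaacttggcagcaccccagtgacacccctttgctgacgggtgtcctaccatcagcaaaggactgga
C1qb: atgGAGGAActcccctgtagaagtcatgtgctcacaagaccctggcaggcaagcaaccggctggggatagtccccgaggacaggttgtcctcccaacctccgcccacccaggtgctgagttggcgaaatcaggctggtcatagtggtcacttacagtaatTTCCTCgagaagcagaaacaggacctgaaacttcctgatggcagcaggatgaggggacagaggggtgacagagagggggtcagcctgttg
The C3 sequence held the C/EBP letters at bases -117 to -110 (TTAGGAAA) and -104 to -97 (TTGCGAAA), counted back from the start. The hypoxia core lay between them at -108 to -104, on the other strand, and shared a base with the second C/EBP match. The C1qa sequence held 1 match to STAT at -90 to -82 and the C1qb sequence held 2 matches to PU.1, at -247 to -242 and -90 to -85. Among the 33469 upstream sequences of the table, C/EBP letters were in 37.2%, the hypoxia core in 16.6%, PU.1 letters in 23.3% and STAT letters in 7.67%. Properdin (Cfp) had 2 PU.1 matches and C3ar1 had 1 match to the NF-kB letters, which were in 1.30% of all sequences. IRF letters, in 3.41% of all sequences, were in none of the 5. A match describes letters only and is no evidence of binding.

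Levels are the deposited log2 values (regularised log2 counts from which the authors had removed 3 surrogate variables). With these values a difference of 1 is a doubling on their own scale, and not necessarily of the counts. They are not scaled for transcript length, and levels were compared between groups within a gene, not between genes. Library medians lay between 7.75 and 7.82. Microglial marker genes, averaged over the list of 9, lay between 13.75 and 14.21 in all samples, and 5 of the 9 were lower in LPS than in Sham by adjusted p. In LPS/HI 1 of the 9 was called lower than in Sham, and 1 of 9 lay above it on average. Of all genes, 10.2% were called higher and 7.56% lower in LPS, and 5.3% higher and 3.48% lower in LPS/HI, the shares beside which these marker counts stand. The 9 neutrophil markers, from 6.70 to 7.08 in Sham, ranged from 6.76 to 7.73 in LPS/HI, where 3 of them were higher than in Sham by adjusted p and 8 of 9 lay above it on average. In LPS they ranged from 6.46 to 6.93, with 1 of 9 called higher and 2 lower than in Sham, and 3 of 9 above it on average. Elane, a gene of neutrophil precursors, was at or below 0.44 in every library. The 6 monocyte markers ran from 9.84 to 10.30 in Sham, from 10.30 to 10.54 in LPS, from 10.12 to 10.75 in NaCl/HI and from 10.11 to 10.93 in LPS/HI. Compared to Sham, 2 of these 6 were called higher in LPS and 3 of 6 in LPS/HI. Astrocyte markers (7) lay at 10.58 to 11.03 in Sham and 10.83 to 11.18 in LPS, with 2 of 7 higher, and at 10.94 to 11.21 in LPS/HI, with 1 of 7 higher by adjusted p and 7 of 7 above Sham on average. Those of border macrophages (7) lay at 10.62 to 11.43 in Sham and 10.43 to 10.84 in LPS, with 2 of 7 lower. In LPS/HI they lay at 10.66 to 10.94, with 1 of 7 lower by adjusted p and 1 of 7 above Sham on average. The part of these cells in the complement results was not tested. In bulk samples fewer cells of a type and less RNA per cell cannot be told apart. The library numbers ran from 1 to 12 and from 13 to 23, each run with 3 samples of every group (2 of LPS in the second), and values within each run are given as a check.

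C3, on which all activation pathways meet, was the member that differed most between groups. In Sham it ranged from 10.74 to 11.19 with a median of 11.08. The 5 LPS samples were at 12.88, 12.91, 12.17, 12.76 and 12.01. All 5 LPS values lay above every Sham value. NaCl/HI samples ranged from 11.10 to 12.13 with a median of 11.78, and 5 of the 6 were above all Sham samples, whereas NaCl/HI replicate 4 lay among them. LPS/HI samples ranged from 12.04 to 12.56 (median 12.27), all above Sham and 5 of 6 above all NaCl/HI samples. The order of the group means was therefore LPS (12.55 ± 0.42, SD, n = 5), LPS/HI (12.27 ± 0.17, n = 6), NaCl/HI (11.74 ± 0.38, n = 6) and Sham (11.03 ± 0.16, n = 6), and each neighbouring pair in that order overlapped.

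**Figure D1:**
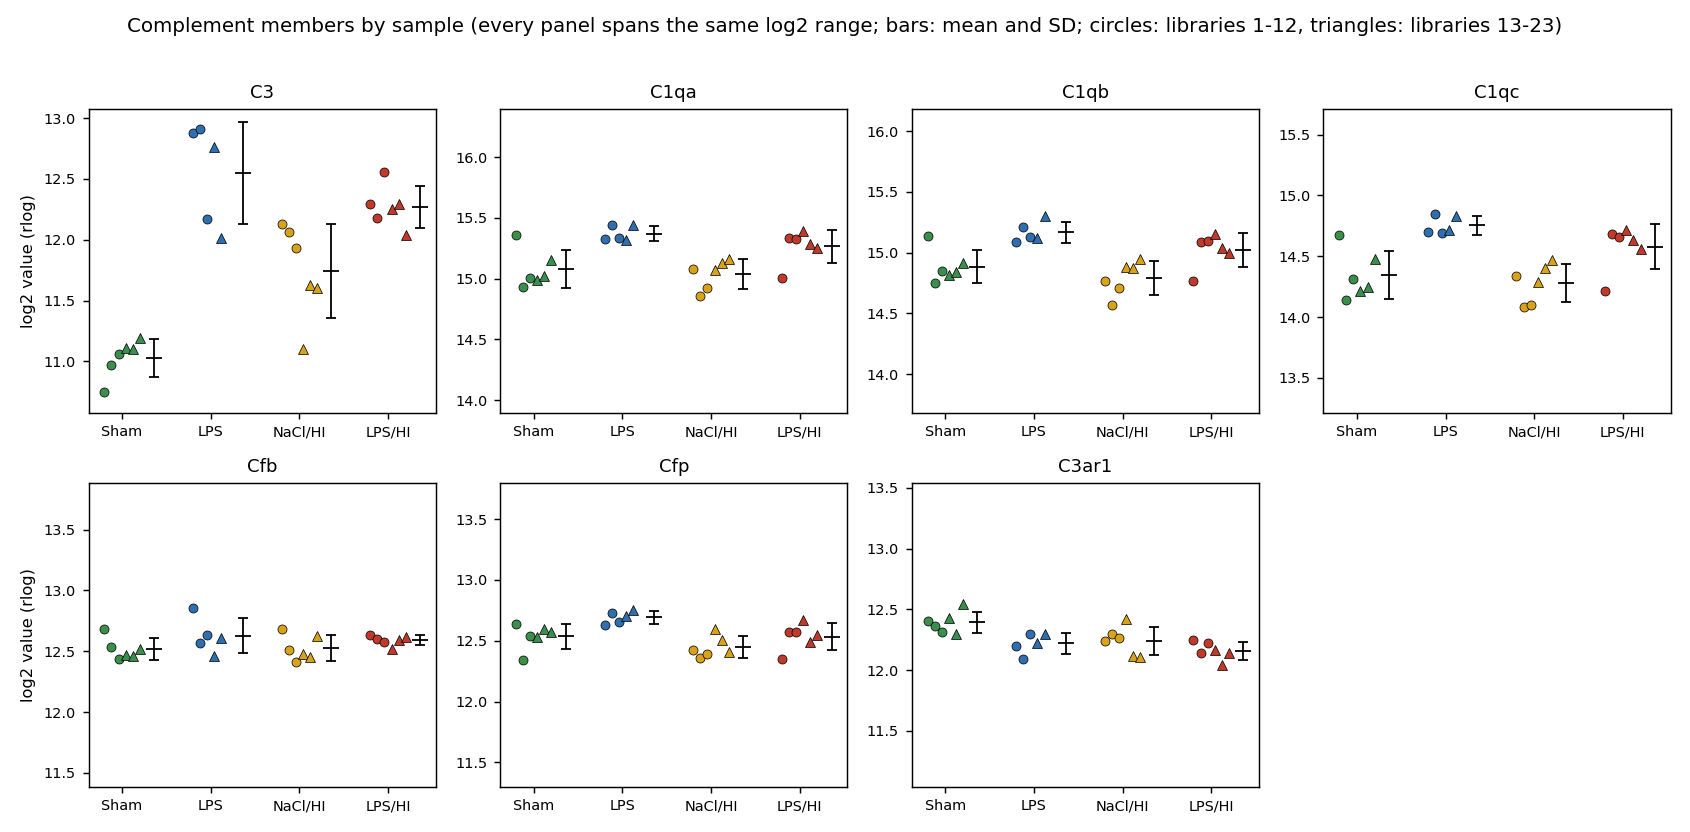
Log2 values of the 7 complement genes in each sample, by group, with the group mean and SD as bars; every panel spans the same log2 range, and circles and triangles are the lower and higher library numbers. C3 lies at 10.74 to 11.19 in Sham and at 12.01 to 12.91 in LPS, and the other 6 genes span much narrower ranges.

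Against Sham, C3 was 1.52 higher in LPS (standard error 0.17), a 2.87-fold difference. In NaCl/HI the difference was 0.71 (standard error 0.17, 1.64-fold), and with LPS/HI it was 1.24 (standard error 0.17, 2.36-fold). These 3 comparisons share the Sham samples. LPS/HI was 0.53 above NaCl/HI and 0.28 below LPS (difference -0.28, standard error 0.17), with overlap in both. The difference between LPS and Sham was 1.73 in the libraries numbered 1 to 12 and 1.26 in those numbered 13 to 23, and that between LPS/HI and Sham 1.42 and 1.06. Less even was NaCl/HI against Sham, at 1.12 in the first run and 0.31 in the second, which holds NaCl/HI replicate 4. Without that replicate the difference over all samples was 0.84. The mean of the 6 monocyte markers split the same way, at 10.59, 10.69 and 10.75 in NaCl/HI replicates 1 to 3 and at 10.12, 10.18 and 10.18 in replicates 4 to 6. That of mural cell and fibroblast markers was at 9.24 to 9.34 and then at 9.01 to 9.20. Border macrophage markers split the other way, at 10.51 to 10.85 and then at 10.95 to 11.10. The part of these cells in the C3 difference was not tested.

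The C1q chains, which form the recognition molecule of the classical pathway, differed little between the groups and varied together. C1qa ranged from 14.93 to 15.36 in Sham (median 15.01), and the LPS samples were at 15.32, 15.44, 15.33, 15.32 and 15.44. It spanned 14.85 to 15.16 in NaCl/HI (median 15.08) and 15.002 to 15.39 in LPS/HI (median 15.31). LPS values sat above 5 of the 6 Sham values and above every NaCl/HI value, while NaCl/HI lay within the range of Sham or just under it. C1qb behaved alike, from 14.75 to 15.14 in Sham and at 15.08, 15.21, 15.13, 15.12 and 15.30 in LPS. For C1qc, the Sham range was 14.14 to 14.67 and the LPS samples were at 14.70, 14.85, 14.69, 14.72 and 14.83, with no overlap. Sham replicate 1 was the highest Sham sample and LPS/HI replicate 1 the lowest LPS/HI sample for all 3 chains.

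Expressed as differences from Sham, LPS gave 0.29 for C1qa (standard error 0.08), 0.28 for C1qb (0.08) and 0.41 for C1qc (0.10), that is 1.22-fold to 1.33-fold. NaCl/HI gave -0.04, -0.09 and -0.06, and LPS/HI gave 0.19, 0.14 and 0.23. LPS exceeded NaCl/HI by 0.33, 0.38 and 0.48, and for all 3 chains these groups did not overlap. Within the runs of library numbers the LPS differences from Sham were 0.27 and 0.32 for C1qa, 0.23 and 0.35 for C1qb and 0.37 and 0.46 for C1qc. Leaving out LPS/HI replicate 1 raised the LPS/HI differences to 0.24 for C1qa and 0.31 for C1qc.

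Set against each other within a sample, C3 minus the mean of the C1q chains gave the shift of C3 relative to the start of the classical pathway. This difference was -4.31, -3.64, -3.66, -3.56, -3.60 and -3.66 in the Sham samples and -2.16, -2.25, -2.87, -2.29 and -3.17 in the LPS samples. NaCl/HI samples were at -2.60, -2.43, -2.65, -3.65, -3.17 and -3.25, and LPS/HI samples at -2.36, -2.86, -2.47, -2.83, -2.69 and -2.90. All LPS and all LPS/HI samples lay above every Sham sample, and 5 of 6 NaCl/HI samples did. The group means were -3.74 ± 0.28 (SD) in Sham, -2.55 ± 0.45 in LPS, -2.96 ± 0.47 in NaCl/HI and -2.69 ± 0.22 in LPS/HI. Relative to Sham this difference was thus 1.19 higher in LPS (standard error 0.23), 0.78 higher in NaCl/HI (0.23) and 1.05 higher in LPS/HI (0.15), and LPS/HI minus LPS was -0.14 (0.22). Within the lower and the higher library numbers it was 1.44 and 0.88 higher in LPS, 1.31 and 0.25 higher in NaCl/HI, and 1.30 and 0.80 higher in LPS/HI.

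**Figure D2:**
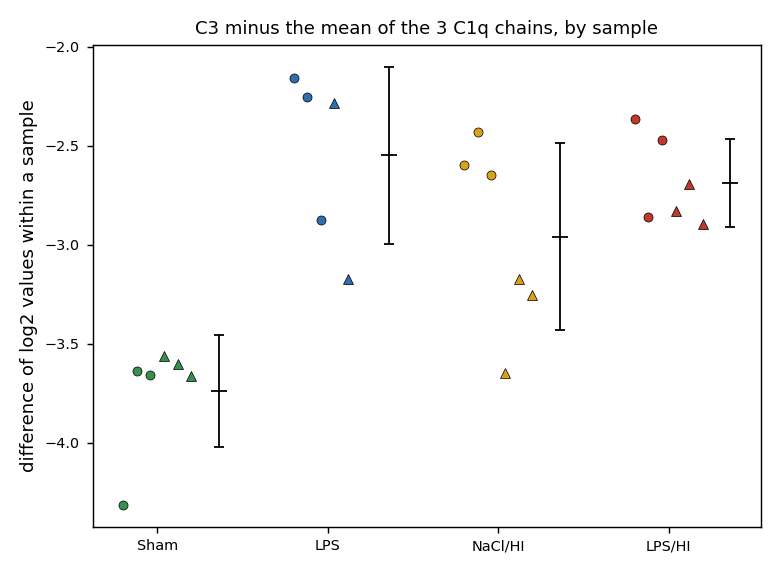
C3 minus the mean of C1qa, C1qb and C1qc (difference of log2 values within a sample) for each sample, by group, with mean and SD; circles are libraries 1 to 12 and triangles 13 to 23. The Sham samples lie between -4.31 and -3.56 and the LPS and LPS/HI samples between -3.17 and -2.16; in NaCl/HI the 3 circles are above the 3 triangles.

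The alternative pathway genes differed less than C3. Cfb, which encodes factor B, was at 12.44 to 12.68 in Sham, at 12.86, 12.57, 12.64, 12.46 and 12.61 in LPS, at 12.41 to 12.69 in NaCl/HI and at 12.52 to 12.63 in LPS/HI. Its groups overlapped in all 6 pairs, and its differences from Sham were 0.11 in LPS (standard error 0.06), 0.01 in NaCl/HI and 0.07 in LPS/HI. Cfp, which encodes properdin, was at 12.35 to 12.64 in Sham, at 12.63, 12.73, 12.65, 12.70 and 12.75 in LPS, at 12.36 to 12.60 in NaCl/HI and at 12.35 to 12.67 in LPS/HI. LPS was 0.16 above Sham with 4 of 5 samples above all Sham samples, and 0.25 above NaCl/HI with no overlap. The mean in LPS/HI (12.53 ± 0.11) and that in Sham (12.54 ± 0.10) differed by far less than the spread within either group.

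C3ar1, the receptor for C3a, had its highest mean in Sham and its lowest in LPS/HI. Sham samples were at 12.30 to 12.54 (median 12.38), LPS samples at 12.20, 12.09, 12.30, 12.22 and 12.30, NaCl/HI samples at 12.10 to 12.42 (median 12.25) and LPS/HI samples at 12.04 to 12.25 (median 12.15). Every LPS and every LPS/HI sample lay below every Sham sample, by a narrow gap in the case of LPS, and NaCl/HI overlapped with Sham. The differences from Sham were -0.17 in LPS, -0.15 in NaCl/HI and -0.23 in LPS/HI (standard error 0.06 each). These are small beside C3, with fold values of 0.89, 0.90 and 0.85. In the lower and higher library numbers the LPS/HI difference was -0.16 and -0.31.

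Read against all 20301 genes, the counts of members past an adjusted p of 0.05 (limma, moderated test over all genes with Benjamini-Hochberg adjustment) are a description, since the members were chosen on these values. LPS against Sham had 5 of 7 members past it, C3 and the C1q chains higher and C3ar1 lower, where 17.8% of all genes were called (10.2% higher and 7.56% lower). With a fold above 2 in addition, C3 was the 1 member past it, beside 0.069% of genes. Groups did not overlap for 3 members, C3, C1qc and C3ar1, and for 13.9% of genes. The C3ar1 call was not held when 1 of 14 samples was left out (Sham replicates 1, 2, 4 and 6, LPS 1, 2 and 4, NaCl/HI 1, 2 and 3, and LPS/HI 2, 3, 4 and 6). It was also lost with no variance trend, in a fit of these groups alone, with a library run block and with median centring. Cfp, not called here, passed without LPS/HI replicate 1, with a library run block and with the degrees of freedom not lowered. NaCl/HI against Sham had 0 of 7 (0.00985% of genes), with 2 members at an unadjusted p under 0.05 (14.8% of genes) and none without overlap (1.01% of genes), and C3 passed when NaCl/HI replicate 4 was left out. LPS/HI against Sham had 2 of 7 (8.77% of genes), C3 higher (5.3% of genes) and C3ar1 lower (3.48% of genes). The same pair did not overlap (6.37% of genes), and C3 alone also had a fold above 2 (0.0936% of genes). The count was 4 of 7 when LPS/HI replicate 1 was left out, with C1qa and C1qc added. C1qa alone was also added without Sham replicate 1.

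Between the treated groups, LPS against NaCl/HI had 5 of 7 members past the threshold, C3, the C1q chains and Cfp, all higher in LPS (8.98% of genes in either direction, 5.32% higher). Groups did not overlap for 4 of them, the C1q chains and Cfp, and for 7.31% of genes. C3, C1qa and Cfp lost their calls in a fit of these groups alone. LPS/HI against LPS had 0 of 7 (1.94% of genes) and LPS/HI against NaCl/HI had 0 of 7 (0.202% of genes), with 1 and 4 members at an unadjusted p under 0.05 (15.5% and 10.6% of genes). The LPS effect on C3 was 1.52 without HI and 0.53 with HI, a difference between these effects of -0.99 (standard error 0.24). Without HI the effect also includes the injection, which both HI groups received and Sham did not. In the lower and higher library numbers the effect was 1.73 and 1.26 without HI, and 0.30 and 0.75 with HI. C3 was the 1 member past the threshold for this difference, where 1.08% of genes were called (0.719% in the negative direction, as C3). Its call was lost when any of 19 samples was left out, and was kept only without LPS replicate 3 or 5, NaCl/HI replicate 4 or LPS/HI replicate 3. It was also lost with no variance trend, with robust variances and with quantile normalization. For the C1q chains the same difference was between -0.11 and -0.05.

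**Figure D3:**
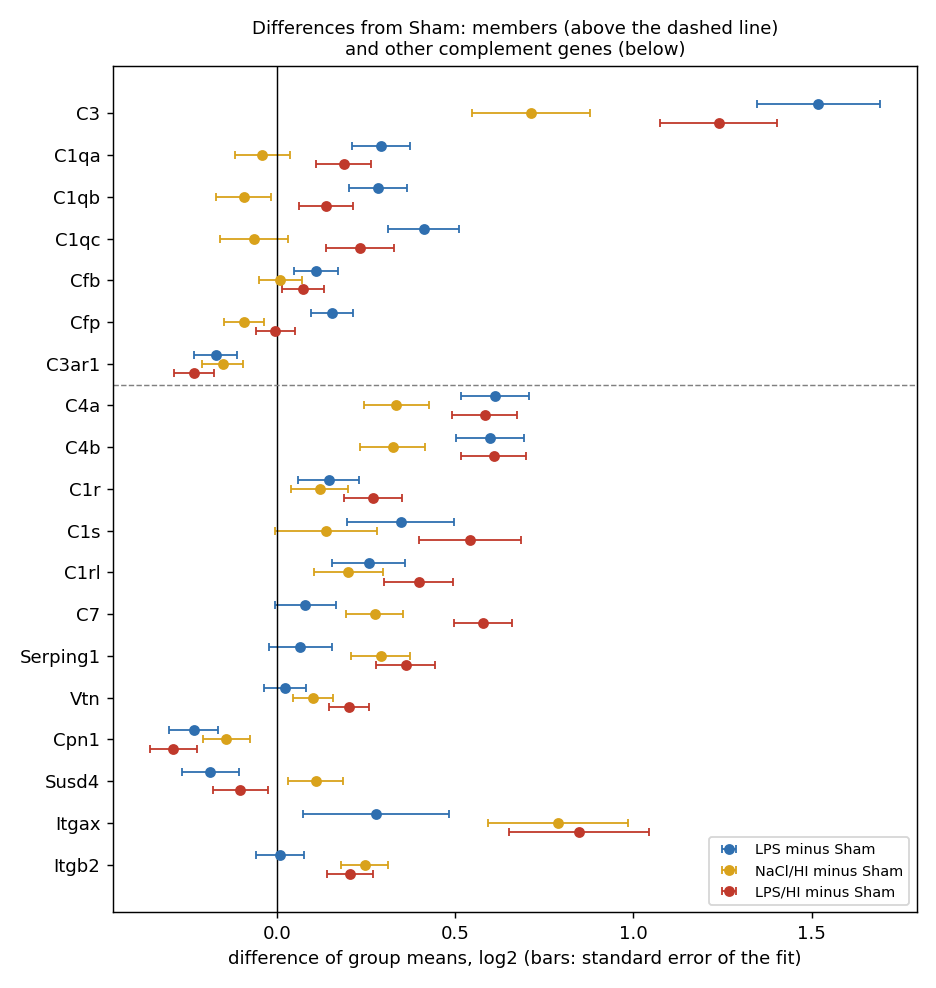
Differences of group means from Sham (log2) with the standard error of the fit as bars, for the 7 members above the dashed line and 12 other complement genes below it, in LPS (blue), NaCl/HI (yellow) and LPS/HI (red). C3 lies at 1.52, 0.71 and 1.24, the C1q chains between -0.09 and 0.41, and C4a and C4b between 0.33 and 0.61.

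The C1q chains varied as a unit. Over the 23 samples Pearson's r was 0.98 between C1qa and C1qb, 0.99 between C1qa and C1qc and 0.97 between C1qb and C1qc, and after subtraction of the group means it was still 0.96, 0.99 and 0.94. C1qb, C1qc and C1qa stand next to each other on chromosome 5 of the annotation. Properdin followed them, with r from 0.80 to 0.86 over all samples and from 0.71 to 0.78 within groups. Within groups the mean of the border macrophage markers had r of 0.73, 0.76 and 0.70 with C1qa, C1qb and C1qc (0.06, 0.08 and 0.01 over all samples), and that of the astrocyte markers -0.56, -0.53 and -0.59. Also within groups, monocyte markers had -0.49, -0.54 and -0.52, mural cell and fibroblast markers -0.45, -0.56 and -0.45, and neuron markers 0.44, 0.50 and 0.44. The part of these cells was not tested. C3 was different: its r with C1qa was 0.49 over all samples and -0.28 within groups, and with Cfb, another gene of the alternative pathway, 0.38 and 0.03. With marker means, C3 had an r of -0.71 for microglia (-0.34 within groups), -0.66 for border macrophages (-0.50), -0.73 for neurons (-0.37), 0.52 for astrocytes (0.19) and 0.55 for monocytes (0.39). The r between C3 and C3ar1 was -0.66 over all samples and -0.28 within groups. These correlations describe samples that share group, library run and the removed surrogate variables, and none was tested.

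**Figure D4:**
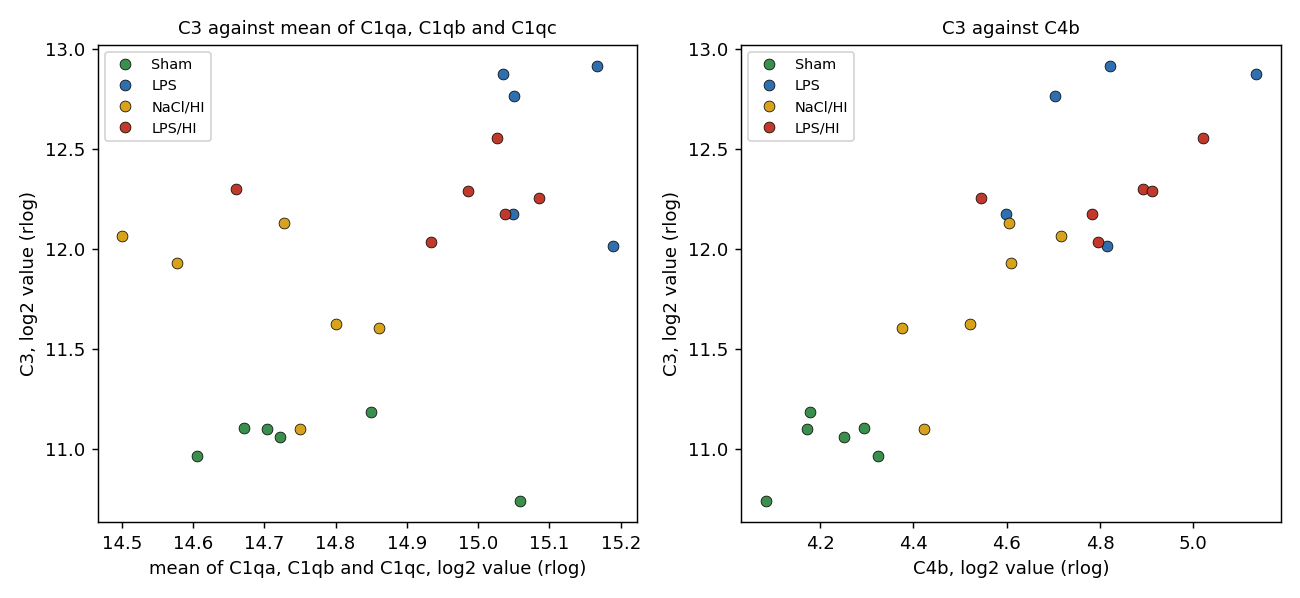
C3 (log2) against the mean of the C1q chains (left) and against C4b (right), 1 point per sample coloured by group. On the left the samples spread far more along the C3 axis than along the C1q axis (r with C1qa 0.49), and on the right the samples high in C3 are high in C4b (r 0.89, within groups 0.55).

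Other genes of the cascade, 44 in all of which 38 had a row, were tested over all genes, though the list was drawn up with earlier results known. C4, cleaved by C1s in the classical and by MASP proteases in the lectin pathway, followed C3 more than C1q. C4a was at 8.95 to 9.27 in Sham (median 9.10), at 9.57, 9.95, 9.58, 9.77 and 9.72 in LPS, at 9.15 to 9.75 in NaCl/HI (median 9.43) and at 9.57 to 9.89 in LPS/HI (median 9.67). C4a rose by 0.61 in LPS (standard error 0.10, limma adjusted p = 0.000141) and by 0.58 in LPS/HI (0.09, adjusted p = 0.00164), with no overlap with Sham in either. In NaCl/HI the difference was 0.33 with an adjusted p of 0.149. C4b, at 4.08 to 4.32 in Sham, rose by 0.60 in LPS (adjusted p = 0.000176) and by 0.61 in LPS/HI (adjusted p = 0.00134), and its NaCl/HI samples, all above Sham, differed by 0.33 (adjusted p = 0.152). C4a and C4b are near-identical copies between which reads can be split, so their separate values are uncertain. The r with C3 was 0.85 for C4a and 0.89 for C4b over all samples, and 0.38 and 0.55 within groups. With the mean of the astrocyte markers the r was 0.60 for C4a and 0.48 for C4b over all samples, and 0.38 and 0.06 within groups. Monocyte markers had 0.55 and 0.60 (0.31 and 0.42 within groups). Microglial markers had -0.58 and -0.72 (-0.09 and -0.49), and border macrophage markers -0.59 and -0.61 (-0.38 and -0.49). The part of these cells was not tested. Because the authors removed variables estimated from the same data, these p-values can come out too low to a degree that is unknown.

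The proteases of the C1 complex were higher in LPS/HI. C1r rose by 0.27 (limma adjusted p = 0.0401), C1s by 0.54 (adjusted p = 0.0240) and the related C1rl by 0.40 (adjusted p = 0.0172) in LPS/HI compared to Sham. C1s was at 6.18 to 6.86 in Sham and at 6.87 to 7.18 in LPS/HI, without overlap by a small margin. With C4a and C4b, all 5 listed genes of this group rose in LPS/HI (median difference 0.54, against -0.00 over all genes), where 5.3% of all genes were called higher. In LPS 2 of 5 rose (median 0.35), where 10.2% were called higher. In LPS the differences were 0.15 for C1r, 0.35 for C1s and 0.26 for C1rl, and none passed (adjusted p 0.246, 0.111 and 0.0821), though C1s did without LPS replicate 4. C1rl did with quantile normalization and with the degrees of freedom not lowered. The C1s call was lost without Sham replicate 1, 4 or 5 or LPS/HI replicate 5, and the C1r call without any of Sham replicates 2, 4, 5 and 6 or LPS/HI replicates 2, 3, 4, 5 and 6. The C1r call was also lost in a fit of these groups alone and with quantile normalization. LPS/HI did not differ from LPS past the threshold for any of the 5 genes, with differences from -0.03 to 0.19.

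**Figure D5:**
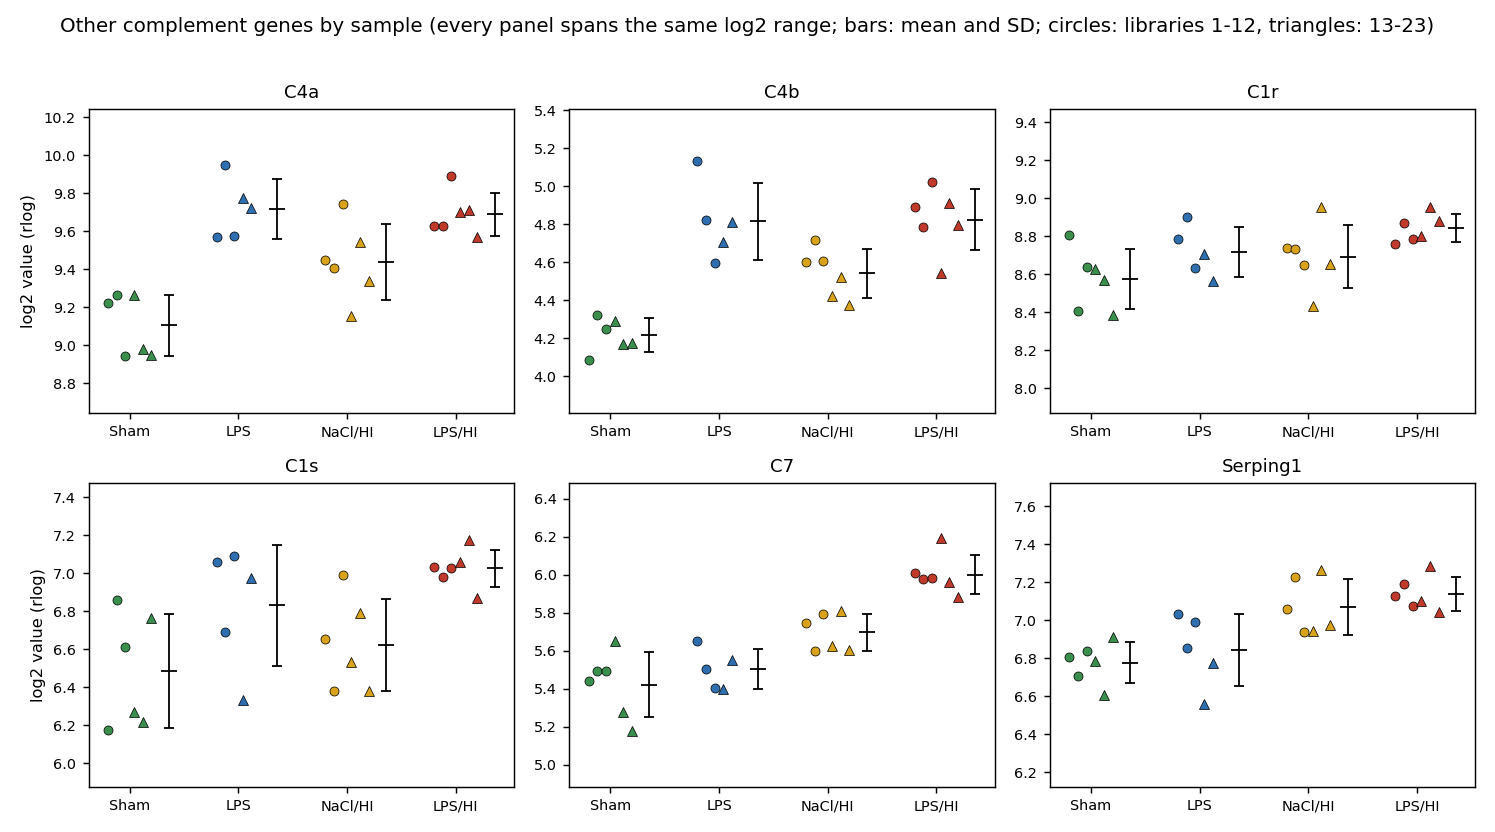
Log2 values of C4a, C4b, C1r, C1s, C7 and Serping1 in each sample, by group, with mean and SD; every panel spans the same log2 range, and circles and triangles are the lower and higher library numbers. C4a and C4b are higher in LPS and LPS/HI than in all Sham samples, and C7 in LPS/HI (5.88 to 6.19) lies above every sample of the other groups.

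C7, a component of the membrane attack complex, was the only terminal pathway gene of 6 that passed in any pair. It was at 5.18 to 5.65 in Sham, at 5.65, 5.51, 5.41, 5.40 and 5.55 in LPS, at 5.60 to 5.81 in NaCl/HI and at 5.88 to 6.19 in LPS/HI. C7 rose in LPS/HI by 0.58 compared to Sham (limma adjusted p = 0.000941) and by 0.50 compared to LPS (adjusted p = 0.00832), and against NaCl/HI the difference was 0.30 with no overlap (adjusted p = 0.111). The rise over LPS lost its call in a fit of these 2 groups alone. Among mural cell and fibroblast markers, genes of cells that also make C7, C1r and C1s, 3 of 7 (Col1a1, Col1a2 and Dcn) were higher in LPS/HI than in Sham (5.3% of all genes) and 2 of 7 higher than in LPS (1.94% of all genes in either direction). The mean of that list was 8.96 to 9.18 in Sham, 8.82 to 9.16 in LPS, 9.01 to 9.34 in NaCl/HI and 9.18 to 9.42 in LPS/HI, and its part in these results was not tested.

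Of the 8 soluble regulators with a row, 2 rose and 1 fell in LPS/HI compared to Sham, where 5.3% and 3.48% of all genes did. Serping1, the inhibitor of C1r and C1s, rose by 0.36 (limma adjusted p = 0.0127), from 6.61 to 6.91 in Sham to 7.04 to 7.29 in LPS/HI. In NaCl/HI its 6 samples were also all above Sham, by 0.29 (adjusted p = 0.157), and in LPS the difference was 0.07. Vtn, which encodes vitronectin and keeps the terminal complex from inserting into membranes, rose by 0.20 (adjusted p = 0.0303), a call lost without Sham replicate 2, 5 or 6 or LPS/HI replicate 4, 5 or 6. Cpn1, the catalytic subunit of carboxypeptidase N, which inactivates C3a and C5a, fell by 0.29 in LPS/HI (adjusted p = 0.0115) and by 0.23 in LPS (adjusted p = 0.0235), the latter call lost without LPS replicate 1, 2 or 4 or Sham replicate 6.

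Of the 5 membrane regulators with a row, Susd4, an inhibitor of classical pathway C3 cleavage, was 0.29 lower in LPS than in NaCl/HI (limma adjusted p = 0.0255). That call was lost without LPS replicate 1 or 5 or NaCl/HI replicate 2, and in a fit of these groups alone. None of the 5 passed in another pair. Cd59, which blocks the membrane attack complex and was chosen after its values were seen, was the 1 other complement gene past the threshold for a difference of the LPS effect with HI. Its LPS effect was -0.09 without HI and 0.25 with HI (difference 0.34, standard error 0.08, limma adjusted p = 0.0436). This call was lost on leaving out any of 14 samples (Sham 1, 2, 3 and 4, LPS 1, 2 and 4, NaCl/HI 1, 2, 5 and 6, and LPS/HI 2, 4 and 6), and with no variance trend, a library run block or median centring. Differences larger than that of Cd59 did not pass for the receptors Cd93 (0.46, limma adjusted p = 0.0524) and Vsig4 (0.44, 0.0770) and for the membrane regulator Cd55 (0.41, 0.102). Cd93 passed on leaving out any of 4 samples and in 3 of 8 other settings.

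Among 7 other complement receptors, Itgax, the alpha chain of complement receptor 4, rose by 0.85 in LPS/HI compared to Sham (standard error 0.20, limma adjusted p = 0.0127). Its LPS/HI samples lay at 10.06 to 10.99 and its Sham samples at 9.31 to 9.94. NaCl/HI, at 9.77 to 10.89, was 0.79 above Sham with an adjusted p of 0.119, and LPS, at 10.26, 10.16, 10.19, 10.08 and 9.24, was 0.28 above it (adjusted p = 0.375), or 0.47 without LPS replicate 5, the sample at 9.24. Itgax is also a target of the sorting beads, as is Itgam, the alpha chain of complement receptor 3, whose differences from Sham were -0.08, 0.05 and -0.01 in LPS, NaCl/HI and LPS/HI (adjusted p 0.380, 0.726 and 0.947). Their shared beta chain Itgb2 was 0.24 lower in LPS than in NaCl/HI (adjusted p = 0.0321), a call lost without any of LPS replicates 1, 2, 4 and 5 or NaCl/HI replicates 1, 2, 3 and 5 and in a fit of these groups alone. All 6 NaCl/HI samples of Itgb2 were above Sham, by 0.25 (adjusted p = 0.134), and LPS/HI was 0.21 above Sham (adjusted p = 0.0506), past the threshold without LPS replicate 3 or 5, NaCl/HI replicate 4 or LPS/HI replicate 1 or 6.

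Counted over the 38 other genes, LPS against Sham gave 3 higher and 2 lower, beside 10.2% and 7.56% of all genes. These were C4a, C4b and Masp1, a protease of the lectin pathway, and Cpn1 and Cd93, a surface protein once described as a C1q receptor. Masp1 rose by 0.24 (limma adjusted p = 0.0413) and Cd93 fell by 0.25 (adjusted p = 0.0431), both chosen here after their values were seen. Cd93 is also expressed in endothelium, and of 6 endothelial markers with a row 2 were lower and 1 higher in LPS than in Sham (median difference -0.14), a part that was not tested. The Masp1 call was lost without any of 8 samples (Sham replicates 1, 3, 5 and 6, LPS 2, 3 and 4, and LPS/HI 2) and the Cd93 call without any of 12 (Sham 2, 3, 4 and 5, LPS 2, 3, 4 and 5, NaCl/HI 5, and LPS/HI 2, 4 and 6). Both were also lost in a fit of these groups alone and with a library run block, and Cd93 with no variance trend. LPS/HI against Sham gave 9 higher and 1 lower, beside 5.3% and 3.48% of all genes. LPS/HI against LPS gave 1 higher (1.94% of all genes in either direction) and LPS against NaCl/HI 2 lower (8.98% in either direction). By limma, 0 genes passed in NaCl/HI against Sham and in LPS/HI against NaCl/HI, with 12 and 11 at an unadjusted p under 0.05, beside 14.8% and 10.6% of all genes. Without NaCl/HI replicate 4 the first of these counts was 3. None of the 38 passed with a fold above 2. Besides Masp1, the lectin pathway genes with a row (6 of 8) had no call in any comparison with Sham, and neither did Cfd, the protease that activates factor B, with differences of 0.07, 0.09 and 0.18 in LPS, NaCl/HI and LPS/HI. Among the uncalled lectin pathway genes, Fcnb lay 0.64, 0.73 and 0.83 above Sham in the same order, with a within-group SD of 0.54.

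Genes whose pattern was most like that of C3 over the 23 samples, by Pearson's r among all genes that are no members, were Hdgf (r = 0.95), Ctsz (0.94), Rangap1 (0.94), Tmco4 (0.94) and Nup133 (0.94). Their difference between LPS and Sham was 0.43, 0.74, 0.51, 0.44 and 0.39. Within groups their r with C3 was 0.83, 0.74, 0.78, 0.76 and 0.67. Most like the mean of the C1q chains were Arrdc1 (r = 0.94), Tmem134 (0.90), Cnppd1 (0.90), Slc2a8 (0.90) and Fam43a (0.90), and their r within groups ran from 0.78 to 0.93. No gene was in both lists.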

How the data were processed

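Gene expression was measured by RNA sequencing (TruSeq v2 libraries, a HiSeq instrument) in 23 samples of CD11b/c-sorted microglia, grouped by the sample titles. The authors pseudoaligned reads with kallisto 0.48.0 to mRatBN7.2 after FastQC 0.11.9 and MultiQC 1.14, applied the rlog transformation of DESeq2 and removed 3 surrogate variables. The deposited values are on a log2 scale, and read depth per sample is unknown from them. As the labels do not say how the replicates arose beyond their being biological, p-values measure the spread between these samples.

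For all 20301 genes, limma 3.58.1 (R 4.3.3) fitted 4 group means with a variance trend, the residual degrees of freedom lowered from 19 to 16 for the removed variables, and Benjamini-Hochberg adjustment over all genes at 0.05. A fold above 2 was a second rule. The members and gene lists were chosen with earlier results of these data known. All members are named, of the other genes the 12 with the smallest adjusted p among those called in any pair, and the 5 genes most like C3 and the C1q mean. Masp1, Cd93, Cd59, Cd55, Vsig4, Fcnb, Itgam and Cfd were named outside this rule, after their values were seen. Members have no p. The C3 minus C1q differences carry standard errors from the group SDs. Replicate numbers did not pair the samples: correlations of same-numbered deviations ran from -0.47 to 0.47. Among the 20301 genes, 209 had values identical to another, none of them a complement gene. Alternatives were leaving out each sample, other variance settings, blocks for replicate number and library run, a filter on low values and other normalizations. Without a row, and not analysed here, were C2, C5ar1, Mbl2, Colec11, C8a, Cpn2, Cd59b and Cr1l. Python 3.11.15, numpy 2.4.6, pandas 2.3.3 and scipy 1.17.1 were used.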

Additional observations from a re-analysis of the deposited data

Results flagged for a closer look

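Among 80 groups of samples checked for a lone high or low value, of which chance alone would set apart about 1 in 20, 5 had such a sample. C1qa in LPS/HI replicate 1 was 15.002, below the next LPS/HI sample at 15.25, and C1qc in the same sample was 14.21, below the next at 14.56. Cfp in Sham replicate 2 was 12.35, with the next Sham sample at 12.53. C3 minus the mean of the C1q chains in Sham replicate 1 was -4.31, with the next Sham sample at -3.66, since that sample had both the lowest C3 and the highest C1q values of its group. Itgax in LPS replicate 5 was 9.24, with the next LPS sample at 10.08.

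By the interaction term of the fit, a difference of the LPS effect with HI was called for 2 complement genes, and neither call was stable. That of C3 was lost on leaving out any of 19 of the 23 samples and in 4 of 8 other settings, and that of Cd59 for 14 of 23 samples and in 4 of 8 settings. For C3 the effect was smaller with HI than without by 0.99 on the log2 scale (-0.99, standard error 0.24), a value of a member chosen on these data. For Cd59 it was 0.34 higher with HI (standard error 0.08, limma adjusted p = 0.0436).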

How the results depend on the processing

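No difference changed direction under any setting where it had been called. Calls of C3, C4a and C4b in LPS and LPS/HI against Sham, of the C1q chains in LPS against Sham, and of C7, Serping1, C1rl, Itgax, C3ar1 and Cpn1 in LPS/HI against Sham held under each of the 9 other fits and each left-out sample. With the degrees of freedom not lowered, the other complement genes called became 8 in place of 5 (LPS against Sham), 1 in place of 0 (NaCl/HI against Sham), 4 in place of 1 (LPS/HI against LPS), 2 in place of 0 (LPS/HI against NaCl/HI), 4 in place of 2 (LPS against NaCl/HI) and 4 in place of 1 (interaction), and 1 member was called in NaCl/HI against Sham. In fits of only the groups compared, which give no interaction, 0 were called in LPS/HI against LPS and 0 in LPS against NaCl/HI, with 2 members called in the latter. A fold above 2 in addition left 0 other genes in every comparison, 1 member in LPS against Sham, 1 in LPS/HI against Sham, 0 in LPS against NaCl/HI and 0 in the interaction. With a library run block, 3 other genes were called in LPS against Sham and 0 in the interaction. The member Cfp was called in LPS against Sham under that block and with the degrees of freedom not lowered. The interaction count of other genes was also 0 with no variance trend, 2 without the lowest 25% of genes, 2 with quantile normalization and 0 with median centring, and its member count was 0 with no trend, with robust variances and with quantile normalization.

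With the replicate number as a block, 2 other genes were called in LPS against Sham, 1 in LPS against NaCl/HI and 0 in the interaction, and 0 members in the interaction. The calls of C3ar1, Cpn1, Masp1 and Cd93 in LPS against Sham, of C1r and Vtn in LPS/HI against Sham, of Itgb2 in LPS against NaCl/HI and of C3 and Cd59 in the interaction were lost under it. The numbers do not pair the samples, and 5 of 23 correlated best with a sample of their own number. The cause of these changes was not tested.

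Leaving out each sample gave, for other genes called, 2 to 6 in LPS against Sham, 0 to 3 in NaCl/HI against Sham, 7 to 12 in LPS/HI against Sham, 1 to 2 in LPS/HI against LPS, 0 to 1 in LPS/HI against NaCl/HI, 0 to 4 in LPS against NaCl/HI and 0 to 3 in the interaction. For members it gave 4 to 6, 0 to 1, 2 to 4, 0 to 0, 0 to 0, 5 to 5 and 0 to 1 in the same order. C3 minus the C1q mean ranged from 1.07 to 1.35, 0.66 to 0.92, 0.94 to 1.09, -0.29 to -0.04, 0.14 to 0.38 and 0.27 to 0.57 in the 6 pairs. The depth behind the log2 values is unknown, which limits what can be said of low genes such as C4b.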
